A study of Mus musculus with 4 samples.

Results

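The 7 genes described here, Prm1, Prm2, Prm3, Tnp1, Tnp2, Hils1 and H1fnt, belong to the set named for packing the chromatin of the sperm head. They were chosen by name: every probe whose gene name in the scanner files was one of the 7 was taken, which gave 1 probe per gene, or 7 of 56605 non-control probes, for 7 of 24812 named genes. RNA was measured in 2 mouse cell lines, GC-2 (2 arrays) and GC-1 (2 arrays), on one-colour Agilent whole-genome arrays. Both lines are labelled as germ cell lines and were grown, untreated, in serum-supplemented medium and harvested near confluence. As background, GC-2 was made from mouse spermatocytes by introducing the simian virus large T antigen together with a p53 that is active only at a lower temperature, and GC-1 from type B spermatogonia by the large T antigen alone. Both thus carry a viral oncogene, and each is an immortalised line. Whether the 2 replicates of a line came from separate cultures is not stated in the labels. The p-values therefore rest on array-to-array spread that may be technical. In such bulk RNA, fewer expressing cells and less RNA per cell cannot be told apart.

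In the testis these genes are transcribed in haploid spermatids, after meiosis. As the spermatid nucleus is remodelled, histones are removed and the transition proteins, encoded by Tnp1 and Tnp2, take their place for a time before the protamines, small arginine-rich proteins encoded by Prm1 and Prm2, condense the DNA. Their mRNAs are stored and translated late. Hils1 and H1fnt encode linker histone-like proteins of the spermatid nucleus, and Prm3, which lies between Prm2 and Tnp2, encodes a small acidic protein that is not protamine-like. Spermatogonia and spermatocytes, the stages from which the lines were made, precede this programme.

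Of the 7 genes, 4 lie side by side on chromosome 16, in the order Tnp2, Prm3, Prm2, Prm1 in the RefSeq annotation, and the sequences of their probes are shown because every level below is read through them. Each is a 60-base oligonucleotide, given here on the strand of the mRNA with its position on mm9, the build of the scanner files. The exon or UTR they lie in was not looked up here. Prm3 and Tnp2 are shown whole and the others by their first 30 bases. The capitals mark a run of the triplet GCT.
Prm3, chr16:10790705-10790764, minus strand: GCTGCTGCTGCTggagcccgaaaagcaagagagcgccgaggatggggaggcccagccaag
Tnp2, chr16:10788572-10788631, minus strand: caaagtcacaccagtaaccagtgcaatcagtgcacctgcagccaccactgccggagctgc
Prm2, chr16:10791549-10791608, minus strand: aatagtcacctgcccaagcaacatcatgtg
Prm1, chr16:10796450-10796509, minus strand: ccacatcttgaaaaatgccaccgtccgatg
Tnp1, chr1:73061834-73061893, minus strand: gcaattaccgatcccacttgtgatgcggca
Hils1, chr11:94829603-94829662, plus strand: gagtctgaaccatgccaattgctactaagc
H1fnt, chr15:98086469-98086528, minus strand: tcagcctggggacactgagtctccttaatg
The GC content of the probes was 66.7% for Prm3, 58.3% for Tnp2, 55% for H1fnt, 51.7% for Tnp1, 50% for Prm2, 48.3% for Prm1 and 40% for Hils1. Probes differ in brightness, so the signal of 1 gene is not compared with that of another.

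The arrays differed in brightness. The 75th percentile of the processed signal, to which each array was scaled, was 416 and 199.9 on the GC-2 arrays, against 666 and 693 on the GC-1 arrays, and between 57.5% and 64.9% of probes passed the well above background flag, the scanner software's mark for a spot clearly brighter than its background. Precision is limited by having 2 arrays per line. All 4 arrays were on 1 slide, with each line in a row of its own, so row and line cannot be told apart. Of the markers that define germ cells, 1 of 10 genes was well above background on both GC-2 arrays and 2 of 10 on both GC-1 arrays, and Dazl, Mael, Kit, Tex101 and Nanos2 were on no array. Most germ cell markers were thus not measured in lines labelled as germ cells. Among markers of Sertoli cells, 6 of 8 genes were measured in GC-2 and 6 in GC-1, among those of Leydig cells 3 of 5 and 4, and among those of peritubular myoid cells 4 of 5 and 5. Of all named genes 62.5% were measured in GC-2 and 68.5% in GC-1.

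Most of the 7 genes gave a dim signal that was nevertheless flagged as well above background, and Prm3 alone was bright against every control. The flag was set for 6 and 6 of the 7 probes in GC-2, against 6 and 7 in GC-1. All 7 exceeded the brightest of the 308 negative control spots on each of the 4 arrays. A harder standard is given by the 96 ERCC probes on the array, which match no mouse RNA. The sources used here do not state that the matching control RNAs were added. Of these, 7 and 3 were well above background on the GC-2 arrays and 9 and 9 on the GC-1 arrays. The brightest of them, averaged over its spots, read 38.3 and 32.3 in GC-2, against 74.2 and 64.8 in GC-1. Above that limit, which was chosen after the data were seen, stood 3 and 2 members on the GC-2 arrays, against 1 and 2 on the GC-1 arrays. The same limit was passed by 46.6% and 42.0% of all probes in GC-2, against 42.8% and 45.0% in GC-1. This limit is set by 1 probe on each array. As bright as Prm1, Prm2, Prm3, Tnp1 or Tnp2 were 0 to 2 of the 96 on any array, and as bright as Hils1 were 3 and 8 in GC-2, against 8 and 7 in GC-1. Signals below the limit overlap those of at least 1 probe with no mouse target.

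**Figure D1:**
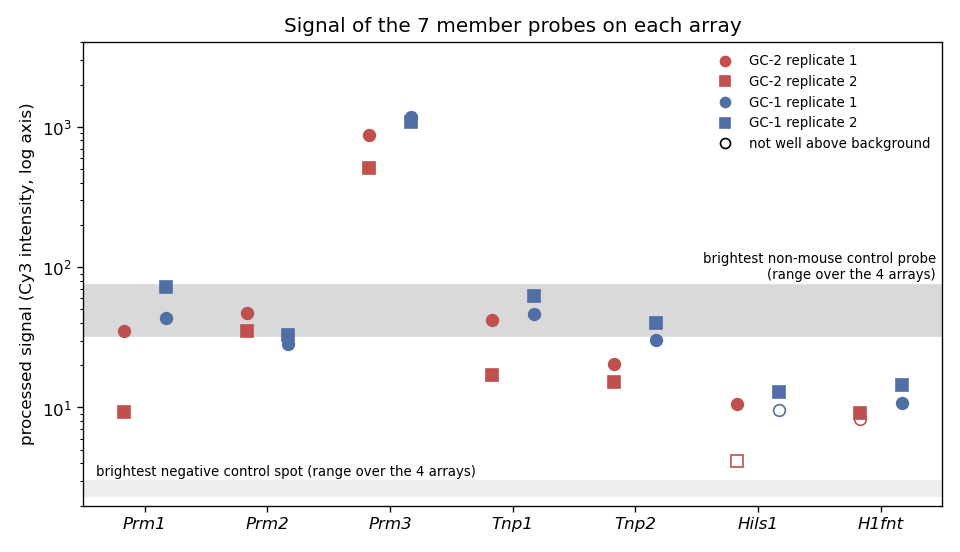
Processed signal (Cy3 intensity, log axis) of each of the 7 probes on the GC-2 arrays (red, left) and the GC-1 arrays (blue, right), with open symbols where the probe was not well above background. The grey bands span, over the 4 arrays, the brightest non-mouse control probe (32.3 to 74.2) and the brightest negative control spot (2.33 to 3.0), and only Prm3 lies above the upper band on every array.

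Among the protamine genes, Prm2 was the member called between the lines with the 75th percentile scaling. Its protein is made as a precursor and shortened by cleavage as it binds DNA. Its processed signal was 46.8 and 35.2 on the GC-2 arrays, against 28.3 and 33.0 on the GC-1 arrays. Both GC-2 values lay above both GC-1 values, by little before scaling. Scaled to the 75th percentile of each array, Prm2 averaged -2.83 ± 0.46 log2 in GC-2 and -4.47 ± 0.11 log2 in GC-1 (SD, n = 2 arrays each). It rose by 1.65 ± 0.30 log2 (SE) in GC-2 (95% interval 0.89 to 2.40; limma, adjusted p = 0.00860). Prm2 stood at 1.22 and 1.09 times the brightest non-mouse probe on the GC-2 arrays, and at 0.381 and 0.509 times it on the GC-1 arrays. With the GC-1 signals below that limit, though well above background, the size of the difference is uncertain.

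The rise of Prm2 was common in size and rested on the scaling. Of all tested probes, 24.1% were called higher in GC-2 and 21.6% lower, and 12.8% rose at least as far as Prm2. The 2 non-mouse probes that were well above background on all 4 arrays were also higher in GC-2 on this scale, by 0.73 and 0.87 log2. Over all 96 non-mouse probes, most of them not well above background, the median difference was 0.85 log2 and 87 were higher in GC-2. Without GC-1 replicate 1 the rise was 1.56 with an adjusted p of 0.0592 (limma). Before any scaling the difference was 0.41 (limma, adjusted p = 0.587). Scaled to the E1A spike-in probes, which were 2.07 ± 0.46 log2 (SD over 8 probes) higher in GC-2 on the 75th percentile scale, Prm2 stood at -0.42 (limma, adjusted p = 0.275). The median of all tested probes was 0.07 with the 75th percentile and -2.00 with the spike-ins, and relative to that median Prm2 was higher by 1.58 log2 in both. Such an equality holds for every probe, since each of these scalings subtracts 1 number per array. The direction of all calls also depended on the setting. Of all calls, 52.7% were higher in GC-2 with the 75th percentile, 39.0% with median centring, 12.2% with no scaling and 5.32% with the spike-ins. After normexp background correction, which does not simply subtract 1 number per array, the share was 66.3%.

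Prm1, the other protamine that packs mouse sperm DNA, did not pass the test. Its signal was 35.3 and 9.32 on the GC-2 arrays, against 43.2 and 71.8 on the GC-1 arrays. The GC-2 arrays were the lower pair before scaling, but the lines overlapped after it. The signal to which each array was scaled was also lower in GC-2 (416 and 199.9, against 666 and 693 in GC-1). The scaled values were -3.56 and -4.42 log2 in GC-2, against -3.95 and -3.27 log2 in GC-1. The difference was -0.38 ± 0.40 log2 (95% interval -1.38 to 0.62; limma, adjusted p = 0.471), an interval that leaves room for a 2-fold change downwards. The probe exceeded the brightest non-mouse probe on 1 array, GC-1 replicate 2.

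Prm3 was measured clearly in both lines. Its signal was 881 and 509 on the GC-2 arrays, against 1179 and 1076 on the GC-1 arrays. These values were 23.0 and 15.7 times the brightest non-mouse probe in GC-2, and 15.9 and 16.6 times it in GC-1. After scaling both GC-2 arrays (1.08 and 1.35 log2) lay above both GC-1 arrays (0.82 and 0.64 log2). The difference was 0.49 ± 0.24 log2 and short of the threshold (95% interval -0.13 to 1.1; limma, adjusted p = 0.159). The GCT run in this probe, GCTGCTGCTGCT, was present on either strand in 13 of 56605 probes. Of the 12 others, 11 were well above background and 10 above the brightest non-mouse probe on all 4 arrays, against 53.6% and 37.3% of all probes. The part of the repeat in the Prm3 signal was not tested.

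The transition protein genes were dim in both lines, and neither passed the test. Tnp1 read 41.9 and 17.1 on the GC-2 arrays, against 46.4 and 62.6 on the GC-1 arrays. Tnp2, whose zinc-binding protein acts with that of Tnp1, read 20.5 and 15.3 on the GC-2 arrays, against 30.2 and 40.0 on the GC-1 arrays. Before scaling each GC-2 value of both genes was below each GC-1 value, whereas the scaled values overlapped between the lines. The scaled difference of Tnp1 was 0.23 ± 0.26 log2 (95% interval -0.42 to 0.88; limma, adjusted p = 0.507). That of Tnp2 was 0.26 ± 0.31 log2 (95% interval -0.52 to 1.05; limma, adjusted p = 0.523). Both differences were slightly negative under quantile normalization and median centring, so their sign is not settled. Tnp1 exceeded the brightest non-mouse probe on GC-2 replicate 1, at 1.09 times it, and on no other array, and Tnp2 on none.

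The spermatid linker histone genes lay at the limit of detection. Hils1 read 10.6 and 4.18 on the GC-2 arrays, against 9.57 and 13 on the GC-1 arrays, and was well above background on 1 array of each line. It was therefore not tested. Its scaled difference was 0.49 log2. H1fnt, listed as H1f7 in RefSeq and needed in mice for normal spermatid nuclei, read 8.31 and 9.18 on the GC-2 arrays, against 10.8 and 14.5 on the GC-1 arrays. The flag was set on 1 of 2 GC-2 arrays and both GC-1 arrays. Its scaled values overlapped between the lines, and the difference was 0.72 ± 0.44 log2 (95% interval -0.38 to 1.82; limma, adjusted p = 0.233). Without GC-2 replicate 1 it was 1.32 (limma, adjusted p = 0.0377), and without GC-2 replicate 2 it was 0.12. On the GC-2 arrays 6 and 2 of the 96 non-mouse probes were at least as bright as H1fnt, and 8 and 5 on the GC-1 arrays.

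As a group, 6 of the 7 probes were tested, 1 was called higher in GC-2 and 0 were called lower, and Prm2 was also the only one with an unadjusted p under 0.05. With 45.7% of all tested probes called in either direction, 1 of 6 is not above that share. The tested members had a median difference of 0.37 log2, beside 0.07 over all tested probes and 0.85 over the 96 non-mouse probes. Prm2 and Prm3 had arrays that did not overlap between the lines, both higher in GC-2, as had 40.7% of all tested probes in that direction and 36.3% in the other. With the spike-in scaling 5 of the 6 were called lower and 0 higher, as were 29901 and 1681 of all probes.

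**Figure D2:**
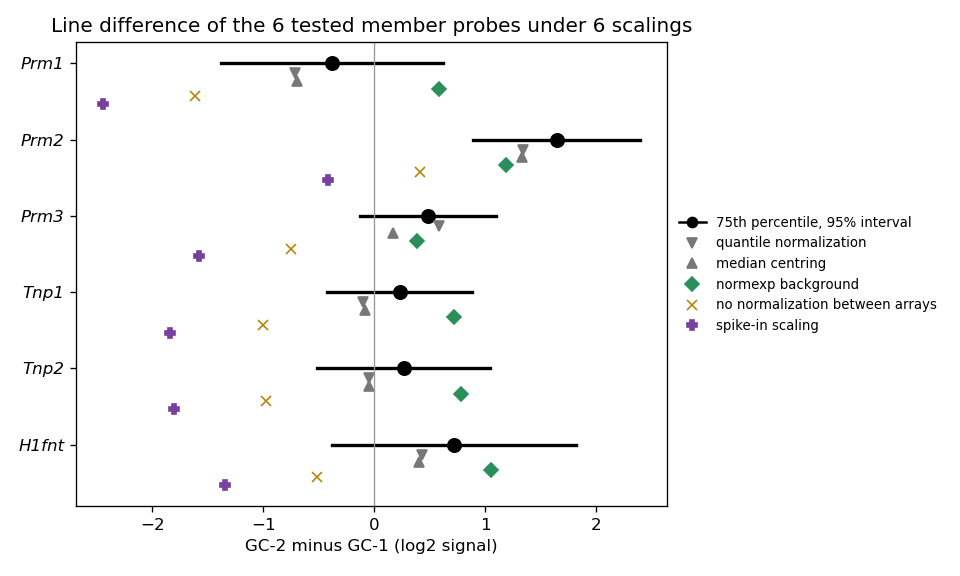
GC-2 minus GC-1 in log2 signal for the 6 tested probes, as scaled to the 75th percentile (black, with the 95% interval of limma) and under 5 other scalings or background corrections. Prm2 at 1.65 is the one black interval that lies clear of 0, and with the spike-in scaling every probe is below 0.

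**Figure D3:**
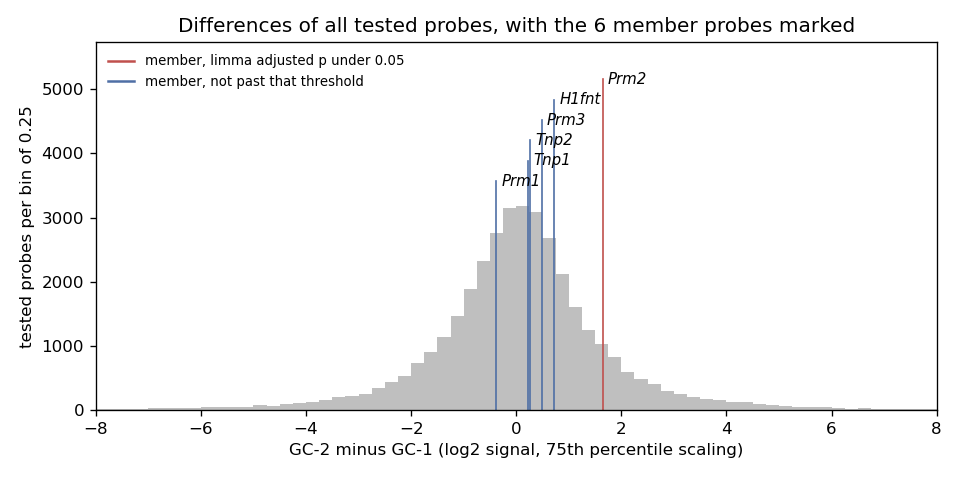
Histogram of GC-2 minus GC-1 (log2 signal, 75th percentile scaling) over all 36692 tested probes in bins of 0.25, with the 6 tested members as vertical lines. The members lie between -0.38 (Prm1) and 1.65 (Prm2), within the bulk of the distribution, which is drawn from -8 to 8.

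The neighbours of the chromosome 16 cluster gave mixed differences. These genes were looked at after the values of the members were known. Socs1, a cytokine signalling inhibitor next to Tnp2, stood at 0.60 ± 0.31 log2, and Rmi2, a genome stability gene next to Prm1, at 0.71 ± 0.29 log2, both short of the threshold (limma, adjusted p = 0.172 and 0.101). One gene further out, Clec16a fell by 1.62 ± 0.23 log2 and Litaf fell by 0.81 ± 0.25 log2 (limma, adjusted p = 0.00393 and 0.0460).

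Upstream sequence of the 7 genes was searched for sites like the cyclic AMP response element, since CREM, a factor that binds this element, is known in mice to be needed for spermatid gene expression. The 250 bases before each start in RefSeq (GRCm38.p6) were searched for TGANNTCA, which reads the same on both strands. All 7 genes had an entry, and 3 of them had 1 match each. The matches are in capitals, on the strand of the gene.
Tnp1, chr1:73015975-73016004, minus strand: gcaaaggttagTGATGTCAcaagagagctg
Prm1, chr16:10796869-10796898, minus strand: ctggtcctcttTGACTTCAtaattcctagg
Prm3, chr16:10790956-10790985, minus strand: tggagcctttgTGAGGTCAgtgccacaccc
The match began 94 bases before the start of Tnp1, 64 before that of Prm1 and 60 before that of Prm3. Of 32851 upstream windows of this length, 11.9% held TGANNTCA and 1.55% the full element TGACGTCA, which none of the 7 held. Prm2, the one member called with the 75th percentile scaling, had no match in this window.

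Genes that control transcription and storage of protamine and transition protein mRNAs were measured about as often as genes in general. Of 15, 10 were well above background on both GC-2 arrays and 11 on both GC-1 arrays (66.7% and 73.3%, beside 62.5% and 68.5% of all named genes), and of 11 tested 2 rose and 2 fell, beside 18.3% and 25.7% of all genes. Crem, which encodes the factor just named, rose by 1.13 ± 0.28 log2 on its brightest probe (limma, adjusted p = 0.0233), and 1 of its 4 tested probes passed. The histone demethylase gene Kdm3a, which is needed in mice for Prm1 and Tnp1 transcription, rose by 0.80 ± 0.24 log2 (limma, adjusted p = 0.0399). Both differences are smaller than the shift of the spike-in probes (2.07 log2), so subtracting that shift, which moves every gene alike, turns their sign. The fit with the spike-in scaling covered all tested probes, but its values for single genes outside the 7 are not given here. Ddx25, an RNA helicase gene of spermatids, fell by 3.41 ± 0.28 log2 (limma, adjusted p = 0.000749), and Kif17, whose motor protein moves a cofactor of CREM in mice, had a GC-1 level at least 2.70-fold higher than in GC-2, where it was not well above background. Kif17 is counted among the 2 that fell, but it entered the test through GC-1 alone. It read 86.7 and 31.2 on the GC-1 arrays, the second value below the brightest non-mouse probe (64.8). Sox30, Piwil1, Papolb and Tdrd6 were well above background on no array. The Y-box gene Ybx2, which stores protamine mRNA, stood at 0.50 ± 0.24 log2 (limma, adjusted p = 0.145).

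Genes of histone removal and protamine handling were nearly all measured in both lines, and the calls ran in both directions. Of 14, 13 were measured in GC-2 and 14 in GC-1, and 1 rose while 5 fell, beside 18.3% and 25.7% of all genes. The kinase gene Camk4, whose product phosphorylates PRM2 in mice, read 9.18 and 1.95 in GC-2, against 167 and 118 in GC-1. It is counted among the 5, but it was well above background on 1 of 2 GC-2 arrays and entered the test through GC-1 alone, so no size is given. Chd5, a chromatin remodeller gene, fell by 1.99 ± 0.46 log2 (limma, adjusted p = 0.0182). Its probe read 66.2 and 17.9 in GC-2, the second value below the brightest non-mouse probe (32.3), so the size is uncertain. The casein kinase gene Csnk2a2 fell by 1.87 ± 0.31 log2 (limma, adjusted p = 0.00646), on 1 of 3 probes. Prkaca, a protein kinase A subunit gene, rose by 1.60 ± 0.23 log2 (limma, adjusted p = 0.00397), less than the spike-in shift. Many of these genes act in somatic cells as well.

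The histones that the transition proteins displace were divided between testis and somatic forms. Of 8 testis histone genes 2 were measured in each line. Hist1h2ba, the testis H2B gene, rose by 1.45 ± 0.25 log2 (limma, adjusted p = 0.00738), less than the spike-in shift, and Hist1h2aa stood at 0.96 ± 0.43 log2 (limma, adjusted p = 0.120). Histone genes have near-identical copies that these probes may share, so both values are uncertain. Hist1h1t, the testis linker histone gene, was well above background on 1 GC-2 array and no GC-1 array. All 7 somatic linker histone genes were measured in both lines, and 5 rose and 1 fell. Over all genes 18.3% rose and 25.7% fell. The differences of H1fx (1.95 log2) and Hist1h1e (2.01 log2) were close to the shift of the spike-in probes. Hist1h1d, Hist1h1a and Hist1h1b rose by 4.51 ± 0.74, 3.98 ± 0.82 and 3.16 ± 0.90 log2 (limma, adjusted p = 0.00611, 0.0128 and 0.0355). H1f0, the replacement linker histone of resting cells, fell by 2.11 ± 0.49 log2 (limma, adjusted p = 0.0183). On the GC-1 arrays Hist1h1d read 10.9 and 35.8, both below the brightest non-mouse probe, and Hist1h1a read 48.2 and 248. The sizes of these 2 rises are thus uncertain. Hist1h1b was above the brightest non-mouse probe on both arrays of each line. It read 2352 and 2138 in GC-2, against 225 and 1559 in GC-1, where the arrays differed widely. H1f0 fell on 1 of its 2 tested probes, which read 72.4 and 19.1 on the GC-2 arrays.

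Other spermatid genes were mostly not detected. Of 16 markers, 3 were measured in GC-2 and 6 in GC-1, against 62.5% and 68.5% of all named genes, and 8 were well above background on no array, among them the acrosomal gene Acrv1 and the outer dense fibre gene Odf1. Above the brightest non-mouse probe stood 0 in GC-2 and 1, Gsg1, in GC-1. Akap4, a fibrous sheath gene of the sperm tail, was the 1 of 6 tested that passed. It read 3.61 and 2.66 in GC-2, where it was not well above background, against 19.9 and 19.4 in GC-1, and it entered the test through GC-1 alone. Both GC-1 values were below the brightest non-mouse probe, and the bound on the GC-1 level is only 1.02-fold higher than GC-2. By the same limit 2 of the 7 members (Prm2 and Prm3) stood above it on both GC-2 arrays and 1 (Prm3) on both GC-1 arrays, against 51.2% and 53.0% of all named genes.

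**Figure D4:**
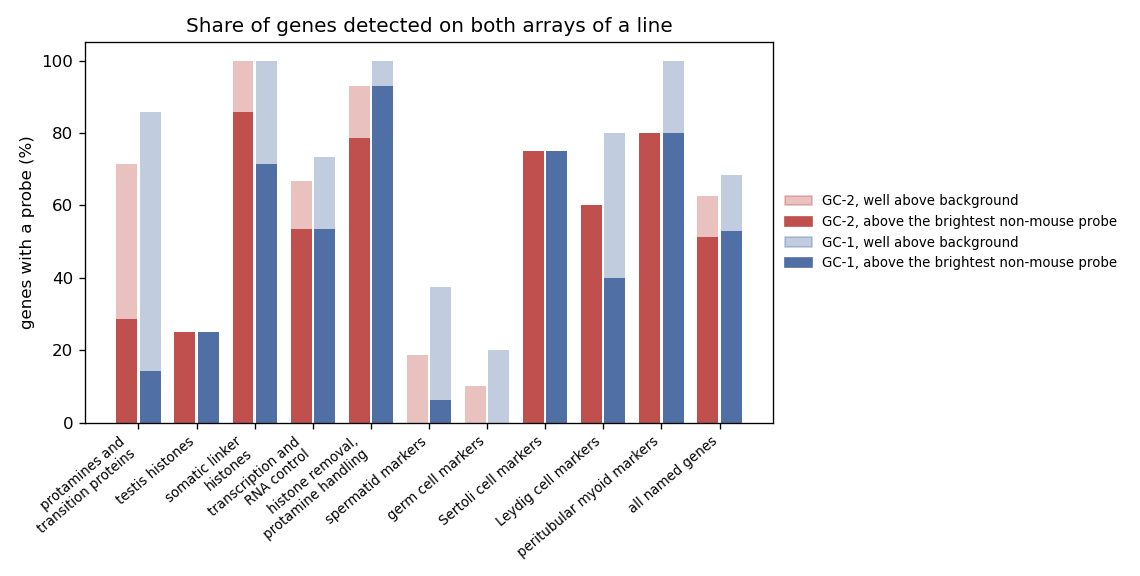
Share of the genes of each list with a probe well above background on both arrays of a line (pale bars) and above the brightest non-mouse control probe on both (dark bars), for GC-2 (red, left) and GC-1 (blue, right), in percent. Germ cell and spermatid markers lie far below all named genes (62.5% and 68.5%, pale bars at the right), while the members have pale bars of 71.4% and 85.7% and dark bars of 28.6% and 14.3%.

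The probes whose pattern over the 4 arrays was most like that of a member were sought among 23213 named probes well above background on all 4, by the root mean square difference after centring each probe on its mean. With 4 arrays and this many candidates, the measure describes shape alone. How close an arbitrary probe comes to its nearest was not computed. Hils1 and H1fnt, not well above background on every array, were left out. The closest to Prm2 were Olfr544, Fgf6 and Letm2, at 0.014, 0.030 and 0.030 log2. Those closest to Prm3 were Olfr145, Ybx2 and Git2, at 0.017, 0.022 and 0.024 log2. Those closest to Prm1 were Ccng1, Memo1 and Sec24a, at 0.065, 0.069 and 0.074 log2. Ifna5, Scap and Ube2v1 came closest to Tnp1, at 0.020, 0.021 and 0.022 log2, and Mtr, Rfx4 and Slc6a21 to Tnp2, at 0.031, 0.033 and 0.034 log2.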

How the data were processed

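Per the labels' protocols, oligo-dT-primed cDNA was transcribed into Cy3-labelled cRNA. Per the file headers, Agilent Feature Extraction 11.5.1.1 gave each spot a processed intensity: its mean brightness less a fitted spatial surface, with a surrogate for dim spots and no scaling between arrays. The deposited flags of 0 or 1, and the raw mean and local background intensity, were also used. The authors' deposited log2 values of the 7 genes equalled log2 processed intensity minus 1 constant per array within 0.0059 (28 values). The direction between lines in the authors' values therefore rests on these constants as well. Prm3 stood at -0.75 log2 in the unscaled scanner values and at 0.44 in the authors' values. No source used here states how the constant was set.

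Irregular spots (92 to 224 per array) were left out, and no spot was saturated. Log2 intensities were averaged per probe and scaled to each array's 75th percentile. Testing was limited to 36692 probes with the well above background flag on both GC-2 arrays or both GC-1 arrays and used limma 3.58.1 in R 4.3.3 (lmFit, eBayes, two-sided), with Benjamini-Hochberg adjustment over all tested probes and a threshold of 0.05. A gene outside the 7 was represented by its brightest tested probe. A probe on no array of a line well above background has only a bound there. The fold is then the brighter line's mean against the array's detection limit, that is, the lowest flagged signal, or against the probe's own signal where that is higher. RefSeq (GRCm38.p6) gave names to 32989 probes through their accession, to 10228 through their symbol and to 519 through a synonym. The other 12869 kept the name in the file.

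The members, lists and alternatives were chosen with earlier results of these data known. All member probes are named. For the lists on sperm chromatin, up to 4 genes past the threshold with the largest changes are named, along with some other list genes. Also named are the 3 genes of most similar pattern for each of the 5 members well above background on all 4 arrays. Values of the other cell type lists are given as counts. On simulated data of 36692 probes limma called 64% of 2-fold and 92% of 4-fold changes, and 2.39% of calls fell on unchanged probes. Every probe called in the real data was given its observed difference, and the 2-fold and 4-fold changes were planted in a small share of the others. The share of changed probes, on which these figures depend, was thus set by the real calls. The spread was drawn from limma's own fit, and no brightness shift between arrays was simulated. These shares therefore do not cover errors of scaling. Alternatives were other scalings, normexp (offset 50), other filters and flags, an intensity trend, a replicate block, leaving out each array and the authors' log2 table.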

Additional observations from a re-analysis of the deposited data

How the results depend on the processing

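Prm2 was called higher in GC-2 under every alternative except 3: without GC-1 replicate 1 (1.56), with no scaling between arrays (0.41) and with the spike-in scaling (-0.42). Its adjusted p (limma) ran from 0.00448 to 0.587 over 16 alternatives. The spike-in and unscaled settings, and the limit set by the non-mouse probes, were chosen after seeing the data. With the spike-ins Prm1, Prm3, Tnp1, Tnp2, Hils1 and H1fnt stood at -2.45, -1.58, -1.84, -1.80, -1.58 and -1.35 log2, and unscaled at -1.62, -0.75, -1.01, -0.97, -0.75 and -0.52. Under normexp Prm1 turned to 0.59 and H1fnt passed at 1.05. Tnp1 and Tnp2 turned to -0.10 and -0.045 under quantile normalization and to -0.087 and -0.051 under median centring. The cause of these changes was not tested, beyond the shift of all probes that each scaling brings. Leaving out 1 array gave -0.81 to 0.051 for Prm1, 1.32 to 1.97 for Prm2, 0.35 to 0.62 for Prm3, 0.042 to 0.42 for Tnp1, -0.051 to 0.58 for Tnp2 and 0.12 to 1.32 for H1fnt. The lone array of a line is then assumed to vary like the other line.

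Of the members, 2 were called higher under normexp, 0 with the spike-ins and 0 unscaled, and 0 to 2 when 1 array was left out. With the spike-ins 5 were called lower, all those tested except Prm2, and unscaled 1, Prm1. Of all probes 1681 and 2127 were called higher and 29901 and 15378 lower in these 2 settings. The authors' deposited table, which has 24097 rows tested, gave 4541 and 4468. Leaving out 1 array gave 5755 to 7401 higher and 4928 to 6168 lower, with the fewest, 5755 and 4928, without GC-1 replicate 1, and 5840 higher without GC-2 replicate 2. Genes of the related lists numbered 16 higher and 13 lower, 8 lower under normexp, and 10 to 15 higher and 5 to 12 lower with 1 array left out (10 higher without GC-2 replicate 2, 5 lower without GC-1 replicate 1). Above the brightest non-mouse probe stood 3 and 2 members in GC-2 and 1 and 2 in GC-1. Same-numbered arrays share only a number. With the replicate number as a block Prm2 had an adjusted p of 0.00510 (limma), no member's call changed, and 9132 probes were called higher and 8200 lower. The correlation of the deviations of same-numbered arrays was 0.15 over 30314 probes.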
